A study of Mus musculus with 6 samples.

Results

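The 9 genes described here serve the build-up and the nerve-driven contraction of skeletal muscle, namely Vgll2, Stac3, Ampd1, Myod1, Myf6, Chrna1, Musk, Acta1 and Mybpc1. They were measured in whole aortas of mice by Affymetrix MG430 2.0 arrays, and the genes were found by the symbol that the annotation of the array gives to a probe set. This gave 12 probe sets of 9 genes, out of 18193 gene symbols on the array. The genes were put together with results of these arrays known, since Vgll2, Stac3 and Ampd1 had been seen among the large differences between the vitamin E and the untreated group, and all 3 comparisons share arrays. Their values are therefore given as a description, with no p-value. Tests are given for other genes of the same pathways and for cell type markers. Those lists were also chosen with earlier results of these arrays known, so that their tests and counts are no independent support.

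The arrays compared 3 groups of mice. Untreated ApoE-/- mice, which lack apolipoprotein E and form atherosclerotic plaques, were on a C57BL/6J background and received no drug. Vitamin E-treated ApoE-/- mice of the same background received the antioxidant vitamin E at 2000 IU per kg of diet over 7 months. B6 mice were non-transgenic C57BL/6J controls without treatment. The groups are called untreated, vitamin E and B6, and both of the first lack Apoe. All mice entered the study at 4 to 6 weeks of age, ate the same rodent chow, and gave their aortas at 32 to 34 weeks. The aortas were dissected, and each of the 6 arrays held the pooled RNA of 3 aortas, with 2 arrays per group. A pool carries the mean of its mice, so that the arrays do not show the spread between animals. The 10 markers of contractile smooth muscle were all above a signal intensity of 100 on all 6 arrays, which is the cell type that an aorta should hold. Apoe was at 40.5 to 93.2 on the 4 arrays of ApoE-/- mice and at 5209 and 5432 on the B6 arrays.

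Skeletal muscle forms when transcription factors of the MyoD family, among them Myod1 and Myf6, switch on muscle genes in precursor cells and hold them on in fibres. A motor nerve then releases acetylcholine onto a patch of membrane where receptors with the alpha subunit Chrna1 are clustered through the kinase Musk. The resulting action potential opens the calcium store of the fibre through a channel complex that contains Stac3, and calcium lets myosin pull on skeletal actin, the product of Acta1, under the control of myosin-binding protein C. The muscle enzyme Ampd1 keeps the energy charge of the working fibre up. The aortic wall is built from smooth muscle, which uses other actins and myosins and is driven without such junctions.

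Bases upstream of the start site were at hand for Vgll2, Chrna1, Musk, Acta1 and Mybpc1. They come from RefSeq with assembly GRCm38.p6, and the 250 bases before the start are shown 5′ to 3′ for the 3 of these genes with a measured difference between the groups. Capitals mark motifs that were searched on both strands, with no overlap between those found. These were the E-box (CANNTG, bound by factors of the MyoD family and by others), the MCAT motif (CATTCC, or GGAATG on the other strand, read by the TEAD factors with which Vgll2 works), the CArG box of serum response factor and the MEF2 site.
Vgll2: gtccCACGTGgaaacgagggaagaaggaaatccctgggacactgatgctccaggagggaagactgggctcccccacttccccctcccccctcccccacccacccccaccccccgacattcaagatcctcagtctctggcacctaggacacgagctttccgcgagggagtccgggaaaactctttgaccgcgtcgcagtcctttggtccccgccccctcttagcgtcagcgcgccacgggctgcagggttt
Acta1: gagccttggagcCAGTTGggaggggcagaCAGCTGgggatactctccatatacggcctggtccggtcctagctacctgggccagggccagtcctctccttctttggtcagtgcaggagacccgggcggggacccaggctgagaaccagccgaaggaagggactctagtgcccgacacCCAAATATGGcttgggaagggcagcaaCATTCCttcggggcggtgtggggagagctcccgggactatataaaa
Mybpc1: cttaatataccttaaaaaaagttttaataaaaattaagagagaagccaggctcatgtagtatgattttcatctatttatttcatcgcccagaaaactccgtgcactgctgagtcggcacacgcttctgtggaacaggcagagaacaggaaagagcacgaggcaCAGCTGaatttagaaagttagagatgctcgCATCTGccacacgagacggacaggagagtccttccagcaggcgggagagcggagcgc
The Vgll2 window (chr10:52022252-52022501, plus strand) held 1 E-box. The Acta1 window (chr8:123894776-123895025, minus strand) held 2 E-boxes, a CArG box from 73 to 64 bases before the start and an MCAT motif from 46 to 41 bases before it. The Mybpc1 window (chr10:88605153-88605402, minus strand) held 2 E-boxes. The windows of Chrna1 and Musk held 3 E-boxes each, and none of the 5 windows held a MEF2 site. Of all 32851 windows of this length in the table, 66.2% held an E-box, 12.6% an MCAT motif, 1.47% a CArG box and 2.92% a MEF2 site. A match of letters is a description and shows no binding.

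In the arrays, Vgll2, Stac3, Ampd1, Acta1 and Mybpc1 were higher in the vitamin E than in the untreated group and lower in the untreated than in the B6 group. Only these 5 genes, with 7 probe sets, had a group whose mean signal intensity was 100 or more and entered the fit over 17909 probe sets. Myod1, Myf6, Chrna1 and Musk, with 5 probe sets, stayed under 100 on all 6 arrays and were not tested. Vgll2, Stac3, Ampd1 and the Mybpc1 probe sets 1442769_at and 1444341_at passed this limit through their vitamin E or B6 arrays alone, so that the direction of the 5 genes is in part set by the limit. Signal intensity is the linear value of a probe set on an array, and a log2 difference is the difference of group means after values under 20 were set to 20. At an adjusted p under 0.05 from limma, 6 of the 7 probe sets were called higher in the vitamin E than in the untreated group, where 15.5% of all probe sets were called, 8.52% higher and 6.99% lower. In the untreated against the B6 group 5 of the 7 were called lower, where 40.8% of all were called, 21.7% higher and 19.1% lower. Between the vitamin E and the B6 group none of the 7 was called, where 41.1% of all were called, 21.9% higher and 19.2% lower. The arrays of the groups compared did not overlap for 7 of the 7 in the first comparison, all higher, where this held for 30.5% of all probe sets (28.4% were lower without overlap). They did not overlap for 7 of the 7 in the second, all lower, beside 36.0% of all (40.8% higher), and for 6 of the 7 in the third, 5 higher and 1 lower, beside 37.4% and 34.0% of all. Since the genes were chosen on these contrasts, nothing is read from the counts.

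**Figure D1:**
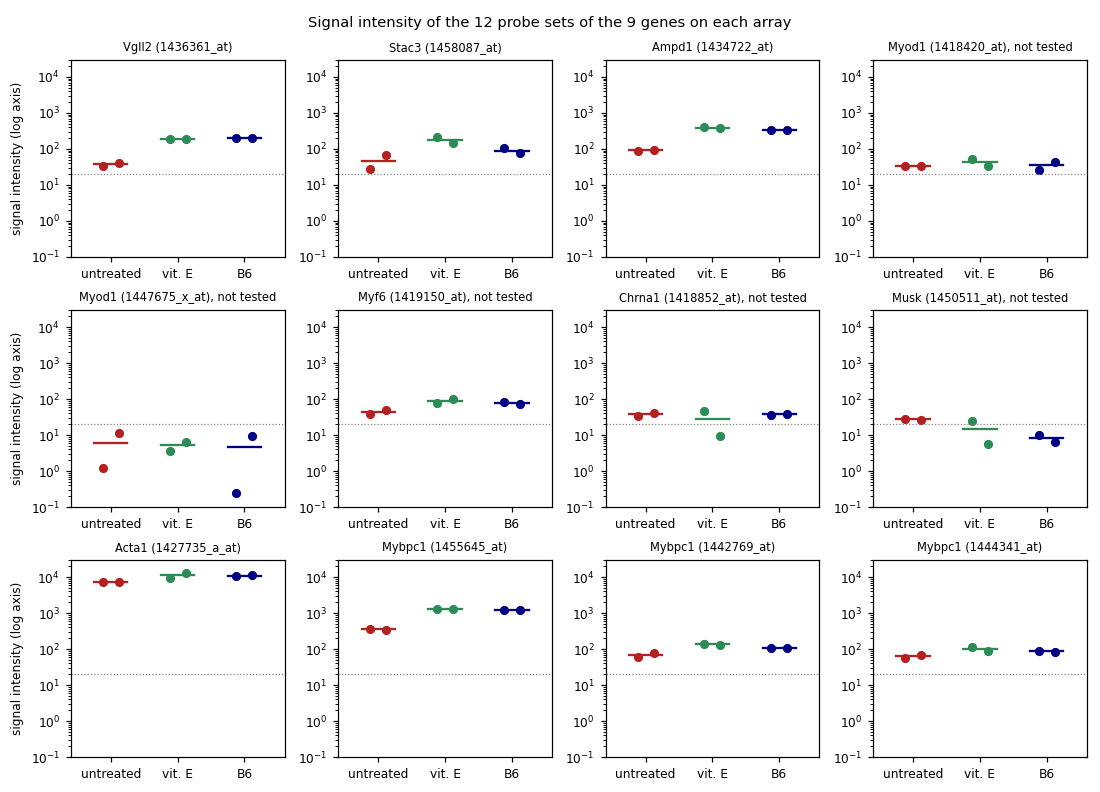
Signal intensity (log axis) of the 12 probe sets of the 9 genes on each array, with 2 arrays per group as points, the group mean as a bar and the value of 20, below which values were set to 20, as a dotted line. Vgll2, Ampd1 and the probe set 1455645_at of Mybpc1 have both untreated arrays well below the other 4, while the probe sets of Myod1, Chrna1 and Musk lie near or under the dotted line.

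Vgll2 is a cofactor that binds TEAD transcription factors and is known from developing and adult skeletal muscle. Its probe set 1436361_at had signal intensities of 34.6 and 39.7 in the untreated group, 186 and 191 in the vitamin E group, and 197 and 197 in the B6 group. Both untreated arrays were low, the other 4 were close together, and no groups overlapped. The mean was 37.1 ± 3.64 (SD, n = 2) in the untreated group, 188 ± 3.36 in the vitamin E group and 197 ± 0.115 in the B6 group. This was 5.08-fold higher in the vitamin E than in the untreated group (log2 difference 2.35, SE 0.15, 95% interval 2.01 to 2.68) and 5.32-fold lower in the untreated than in the B6 group (log2 difference -2.41, SE 0.15, interval -2.75 to -2.07). Between the vitamin E and the B6 group the log2 difference was -0.07, with an interval from -0.41 to 0.27.

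Myod1 and Myf6 are transcription factors of the MyoD family, of which Myod1 commits cells to the muscle lineage and Myf6 is the member kept on in adult fibres. The Myod1 probe set 1418420_at gave 33.5 and 34.1 in the untreated group, 53.2 and 34.4 in the vitamin E group and 26.6 and 44.6 in the B6 group, so that the B6 arrays spanned the untreated ones. The other Myod1 probe set, 1447675_x_at, was under 20 on all 6 arrays, between 0.244 and 11.1. Both probe sets were too dim for a difference between the groups to be read. Myf6 (1419150_at) had signal intensities of 38.5 and 51.0 in the untreated group, 77.3 and 99.4 in the vitamin E group and 83.5 and 74.7 in the B6 group. Both untreated arrays were below the other 4, and the vitamin E and B6 arrays overlapped. The mean of Myf6 was 44.7 ± 8.82 (SD, n = 2), 88.4 ± 15.6 and 79.1 ± 6.19 in this order, which was a log2 difference of 0.98 between the vitamin E and the untreated group and of -0.83 between the untreated and the B6 group. These differences had no fitted error, since Myf6 missed the limit of 100.

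Among 20 other regulators of myogenesis and satellite cells with a probe set, 12 were under 100 on all arrays and 8 were tested. Myf5 and Pax7, which mark muscle precursors, and Mymk and Mymx, which fuse them into fibres, were under 20 on all 6 arrays, and Myog, the factor of terminal differentiation, lay between 12.8 and 39.9. In the vitamin E against the untreated group 3 of the 8 rose, 0 fell, and their median log2 difference was 0.33, beside 8.18% higher and 7.64% lower among the 10650 genes tested. These were Mef2c, Mef2d and Tead1. Mef2c, a partner of the MyoD family, had signal intensities of 975 and 1019 in the untreated group, 1308 and 1330 in the vitamin E group and 1258 and 1237 in the B6 group, with both untreated arrays lowest. It rose 1.32-fold (log2 difference 0.40, SE 0.06, adjusted p = 0.0059 from limma) and was 1.25-fold lower in the untreated than in the B6 group (adjusted p = 0.0049). Tead1, a DNA-binding partner of Vgll2, had 597 and 574, 701 and 802, and 689 and 686 in this order, so that both untreated arrays were lowest here too. It rose 1.28-fold (log2 difference 0.36, SE 0.08, adjusted p = 0.028 from limma), while its log2 difference between the untreated and the B6 group was -0.23 (adjusted p = 0.056). In that comparison 5 of the 8 were lower and 0 higher, with a median of -0.47 beside 21.1% higher and 20.8% lower among all genes. The 5 were Eya1, Mef2a, Mef2c, Tbx1 and Vgll3, of which Eya1, a cofactor of the muscle precursor programme, had the largest log2 difference at -1.41 (SE 0.23, adjusted p = 0.0025 from limma). Between the vitamin E and the B6 group 1 was higher and 2 lower (median -0.24), beside 21.1% higher and 21.7% lower among all genes, and Vgll3, a relative of Vgll2, was lower by a log2 difference of -0.97 (adjusted p = 0.0069 from limma). The mean of Eya1 reached 100 only in the vitamin E and B6 groups, and that of Vgll3 only in the B6 group. The direction of their differences is therefore in part set by the limit of 100.

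Chrna1 encodes the alpha subunit of the muscle acetylcholine receptor, which fibres hold at the nerve contact and spread over their surface when the nerve is lost. Its probe set 1418852_at gave 34.3 and 42.1 in the untreated group, 45.4 and 9.38 in the vitamin E group and 36.9 and 38.9 in the B6 group. The 2 vitamin E arrays lay on either side of all others, and the groups overlapped. The mean was 38.2 ± 5.50 (SD, n = 2), 27.4 ± 25.5 and 37.9 ± 1.38, and no difference could be measured at this signal. Musk is the receptor tyrosine kinase that gathers acetylcholine receptors when the nerve releases agrin. Musk (1450511_at) gave 27.9 and 26.2 in the untreated group, 24.1 and 5.59 in the vitamin E group and 9.85 and 6.23 in the B6 group. With 3 of the 6 values under 20 and the others between 24.1 and 27.9, no difference between the groups could be read.

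Other receptor subunits of the neuromuscular junction were faint on these arrays. Of 17 other genes of the junction with a probe set, 8 were under 100 on all arrays, among them the receptor subunits Chrnd, Chrne and Chrng, which were under 20 on all 6. Chrnb1 lay between 54.5 and 78.8, Rapsn, which anchors the receptors, between 19.4 and 49.1, and Lrp4, the agrin receptor that works with Musk, between 34.7 and 63.0. Of the 9 tested, 2 rose and 1 fell in the vitamin E against the untreated group, with a median log2 difference of -0.09. Ache, which cleaves acetylcholine, had signal intensities of 114 and 122 in the untreated group, 167 and 181 in the vitamin E group and 153 and 164 in the B6 group, with the untreated arrays lowest. It rose 1.48-fold (log2 difference 0.56, SE 0.13, adjusted p = 0.027 from limma), the adaptor Crkl rose 1.29-fold (adjusted p = 0.012), and Dag1, dystroglycan, fell 1.29-fold (log2 difference -0.37, SE 0.06, adjusted p = 0.0092). Against the B6 group, 3 of the 9 were lower and 0 higher in the untreated group (median -0.08), and 2 were lower and 0 higher in the vitamin E group (median -0.18). Utrn, utrophin, was lower in both, with log2 differences of -0.60 (adjusted p = 0.00038 from limma) and -0.63 (adjusted p = 0.00035).

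Neuron markers were higher in the B6 group than in both groups of ApoE-/- aortas. Of 10 tested neuron markers, 7 were higher in the vitamin E than in the untreated group (median log2 difference 0.39), while all 10 were lower than in the B6 group in the untreated (median -1.24) and in the vitamin E group (median -0.90). Dbh, an enzyme of noradrenaline synthesis, had 652 and 669 in the untreated group, 818 and 912 in the vitamin E group and 1625 and 1506 in the B6 group, which put the groups in 3 separate steps. The markers of motor neurons, Chat and Slc18a3, were not tested, with signal intensities between 1.49 and 23.5 and between 4.83 and 34.2.

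Stac3 is the adaptor that holds the voltage sensor of the skeletal fibre in coupling with the calcium release channel. Its probe set 1458087_at had signal intensities of 28.1 and 65.8 in the untreated group, 219 and 145 in the vitamin E group and 103 and 75.3 in the B6 group. The groups did not overlap and ran in 3 steps, with the vitamin E arrays highest, but its standard error on the log2 scale was the largest of the 7 tested probe sets. The mean was 46.9 ± 26.7 (SD, n = 2), 182 ± 52.6 and 89.4 ± 19.8. This was 4.15-fold higher in the vitamin E than in the untreated group (log2 difference 2.05, SE 0.40, 95% interval 1.11 to 2.99). The other differences had intervals that ran near 0, from -1.98 to -0.10 for the untreated against the B6 group (log2 difference -1.04) and from 0.08 to 1.95 for the vitamin E against the B6 group (log2 difference 1.01). The log2 difference between the vitamin E and the untreated group was 1.44 without untreated replicate 1 and 2.67 without replicate 2, and that between the untreated and the B6 group was -0.42 and -1.65. The first was no longer called without untreated replicate 1 or vitamin E replicate 1 (log2 difference 1.75) or without a filter on signal, and the second was called without untreated replicate 2 or with median centring. The difference between the vitamin E and the B6 group was called without untreated replicate 1 and without untreated replicate 2.

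The release machinery around Stac3 was measured more firmly. Of 12 tested genes of excitation-contraction coupling, 5 rose and 0 fell in the vitamin E against the untreated group, with a median log2 difference of 0.69. They were Ryr1, Trdn, Jsrp1, Casq1 and Cacna1s. Ryr1, the calcium release channel itself, had signal intensities of 275 and 291 in the untreated group, 1011 and 987 in the vitamin E group and 752 and 713 in the B6 group, again in 3 separate steps. It rose 3.53-fold (log2 difference 1.82, SE 0.07, adjusted p = 2.2e-05 from limma), was 2.59-fold lower in the untreated than in the B6 group (adjusted p = 1.6e-05) and 1.36-fold higher in the vitamin E than in the B6 group (adjusted p = 0.0026). Casq1, the calcium buffer of the store, had 713 and 727, 1879 and 2197, and 815 and 793 in this order, so that the vitamin E arrays stood above both other groups. It rose 2.82-fold (log2 difference 1.50, SE 0.08, adjusted p = 9.3e-05 from limma) and was 2.53-fold higher than in the B6 group (adjusted p = 4e-05), while the untreated and B6 groups differed by a log2 difference of -0.16 (adjusted p = 0.16). Jsrp1 and Cacna1s, the pore of the voltage sensor, were likewise higher in the vitamin E than in the B6 group, with log2 differences of 1.13 (adjusted p = 0.0011 from limma) and 0.60 (adjusted p = 0.011), and Trdn, triadin, was 3.01-fold lower in the untreated than in the B6 group (adjusted p = 0.00093). Jsrp1 had means of 65.1 in the untreated, 186 in the vitamin E and 85.4 in the B6 group. It passed the limit of 100 through its vitamin E arrays alone, so that its rise is in part set by the limit. Over the list, 1 gene was higher and 2 lower in the untreated than in the B6 group (median -0.22), and 6 were higher and 1 lower in the vitamin E than in the B6 group (median 0.43). The gene higher in the untreated group was Jph2, a junctophilin (log2 difference 0.61, adjusted p = 0.0014 from limma). The relatives of Stac3 on the array, Stac and Stac2, were under 100 on all arrays and were not tested.

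**Figure D2:**
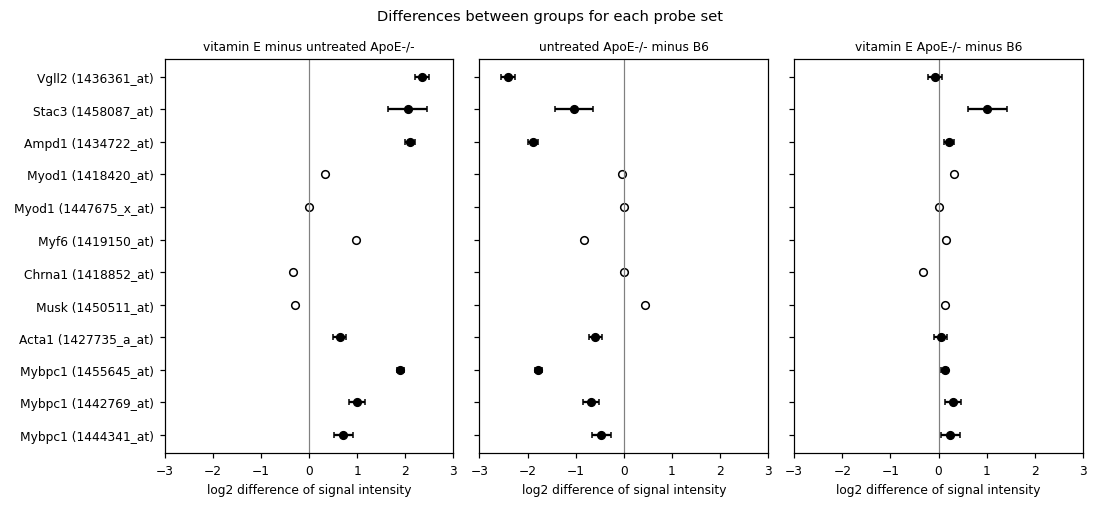
Log2 difference of signal intensity for each of the 12 probe sets in the 3 comparisons, with the standard error of the fit as a bar for the 7 tested probe sets (filled) and no error for the 5 not tested (open). Vgll2, Ampd1 and Mybpc1 1455645_at sit near 2 in vitamin E minus untreated, near -2 in untreated minus B6 and near 0 in vitamin E minus B6, and Stac3 has the widest bars.

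Ampd1 is the AMP deaminase of skeletal muscle, which starts the purine nucleotide cycle and removes AMP during hard work. Its probe set 1434722_at had signal intensities of 88.2 and 95.1 in the untreated group, 402 and 383 in the vitamin E group and 343 and 330 in the B6 group. The untreated arrays were low, the vitamin E arrays stood slightly above the B6 arrays, and no groups overlapped. The mean was 91.6 ± 4.88 (SD, n = 2), 392 ± 13.4 and 337 ± 9.16. This was 4.28-fold higher in the vitamin E than in the untreated group (log2 difference 2.10, SE 0.10, interval 1.86 to 2.34) and 3.68-fold lower in the untreated than in the B6 group (log2 difference -1.88, SE 0.10, interval -2.12 to -1.64). The vitamin E and B6 groups differed by 0.22, with an interval from -0.02 to 0.46.

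Of the other AMP deaminases, Ampd3, the form of red blood cells and many tissues, had 443 and 462 in the untreated group, 322 and 310 in the vitamin E group and 462 and 480.5 in the B6 group, with the vitamin E arrays lowest. It fell 1.43-fold in the vitamin E against the untreated group (log2 difference -0.52, SE 0.08, adjusted p = 0.0063 from limma), while the log2 difference of Ampd2 was 0.20 (adjusted p = 0.44). Of the 13 tested genes of purine turnover and energy transfer, 6 rose and 1 fell in this comparison (median 0.20), 1 was higher and 5 lower in the untreated than in the B6 group (median -0.08), and 4 were higher and 2 lower in the vitamin E than in the B6 group (median 0.11). Ada, adenosine deaminase, had 993 and 944, 2776 and 2901, and 3072 and 3091 in the order untreated, vitamin E and B6, with both untreated arrays far below the others. It rose 2.93-fold (log2 difference 1.55, SE 0.06, adjusted p = 2.2e-05 from limma) and was 3.18-fold lower in the untreated than in the B6 group (adjusted p = 3.5e-06). Ckm, muscle creatine kinase, had 4156 and 4228, 7331 and 7893, and 7195 and 6899 in this order and rose 1.81-fold (adjusted p = 0.00046), whereas Pygm, muscle glycogen phosphorylase, rose 1.87-fold (adjusted p = 0.00064) with a log2 difference of only -0.08 between the untreated and the B6 group (adjusted p = 0.48).

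Acta1 encodes the alpha-actin of skeletal muscle thin filaments, which the heart also makes in part. Its probe set 1427735_a_at had signal intensities of 7245 and 7351 in the untreated group, 9730 and 13264 in the vitamin E group and 10929 and 11135 in the B6 group. Both untreated arrays were lowest, and the vitamin E arrays lay on either side of the B6 arrays. The mean was 7298 ± 74.8 (SD, n = 2), 11497 ± 2499 and 11032 ± 146. This was 1.56-fold higher in the vitamin E than in the untreated group (log2 difference 0.64, SE 0.13, interval 0.32 to 0.95) and 1.51-fold lower in the untreated than in the B6 group (log2 difference -0.60, SE 0.13, interval -0.91 to -0.28). Without any 1 of the untreated or B6 replicates Acta1 was called in neither of these comparisons, with log2 differences still between 0.63 and 0.65 and between -0.61 and -0.58. It also lost its call in both without a filter on signal, and in the first when B6 arrays were left out of the fit. Between the vitamin E and the B6 group the log2 difference was 0.04 and not called, but it was called at 0.27 without vitamin E replicate 1 and at -0.18 without vitamin E replicate 2. Of the 5 other actins, Actc1, the cardiac alpha-actin, had 8073 and 7618, 4870 and 5588, and 5599 and 5579, so that the untreated arrays were highest, and it fell 1.50-fold in the vitamin E against the untreated group (log2 difference -0.59, SE 0.08, adjusted p = 0.0049 from limma). Acta2, the smooth muscle actin of the aortic wall, had a log2 difference of -0.05 in that comparison (adjusted p = 0.72) and was 1.20-fold lower in the vitamin E than in the B6 group (adjusted p = 0.034). Over the 5 actins, 0 rose and 1 fell in the vitamin E against the untreated group (median -0.05), 1 was higher and 0 lower in the untreated than in the B6 group (median -0.03), and 0 were higher and 1 lower in the vitamin E than in the B6 group (median -0.07).

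Mybpc1 encodes the myosin-binding protein C named for slow fibres and found in fast fibres as well, and 3 probe sets measure it. The probe set 1455645_at had signal intensities of 366 and 335 in the untreated group, 1326 and 1291 in the vitamin E group and 1189 and 1207 in the B6 group. The untreated arrays were far below the others, and no groups overlapped. The mean was 351 ± 21.8 (SD, n = 2), 1308 ± 24.7 and 1198 ± 12.5, which was 3.73-fold higher in the vitamin E than in the untreated group (log2 difference 1.90, SE 0.07, interval 1.74 to 2.06) and 3.42-fold lower in the untreated than in the B6 group (log2 difference -1.77, SE 0.07, interval -1.94 to -1.61). The vitamin E and B6 groups differed by 0.13 (interval -0.04 to 0.29), or by -0.03 when arrays were centred on their medians. The probe set 1442769_at gave 60.1 and 75.9, 136 and 132, and 108 and 110 in this order, with log2 differences of 0.99, -0.69 and 0.30, and was not called in the first comparison without untreated replicate 1 or in the second without untreated replicate 1 or either B6 replicate. Without a filter on signal, 1442769_at also lost its call in both of these comparisons. The probe set 1444341_at gave 57.4 and 67.5, 118 and 88.3, and 88.3 and 84.0, with log2 differences of 0.71, -0.47 and 0.24. It was called in no comparison with the settings of the report. In the first comparison it was called with a floor of 50 or with no intensity trend, and its log2 difference was 0.92 without vitamin E replicate 2. All 3 had both untreated arrays lowest, with log2 differences of unequal size. They read 1 gene in the same RNA and are no replicates of each other.

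The 4 other genes of this family split. Mybpc2, the fast skeletal form, had 451 and 422 in the untreated group, 1347 and 1447 in the vitamin E group and 1182 and 1111 in the B6 group, with the untreated arrays lowest. It rose 3.20-fold in the vitamin E against the untreated group (log2 difference 1.68, SE 0.07, adjusted p = 3.6e-05 from limma) and was 2.63-fold lower in the untreated than in the B6 group (adjusted p = 1.7e-05). Mybpc3, the cardiac form, had 1186 and 1109, 491 and 550, and 375 and 320 in this order, with the untreated arrays highest. It fell 2.21-fold (log2 difference -1.14, SE 0.10, adjusted p = 0.00065 from limma) and was 3.31-fold higher in the untreated than in the B6 group (adjusted p = 2.8e-05). Mybphl, a relative known from heart atria, fell 2.40-fold (adjusted p = 0.00072), and Mybph had a log2 difference of 0.62 (adjusted p = 0.11). Over these 4 genes, 1 rose and 2 fell in the vitamin E against the untreated group (median -0.26), 2 were higher and 1 lower in the untreated than in the B6 group (median 0.60), and 2 were higher and 0 lower in the vitamin E than in the B6 group (median 0.33).

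Genes of embryonic muscle and of fibres that have lost their nerve were examined as a further list, since Chrna1, Musk and Myod1 are known to rise in such fibres. Of 7 tested, 2 rose and 1 fell in the vitamin E against the untreated group (median 0.18), 2 were higher and 3 lower in the untreated than in the B6 group (median -0.10), and 2 were higher and 2 lower in the vitamin E than in the B6 group (median -0.04). Myh3, the embryonic myosin, was under 20 on all arrays. Myh8, the perinatal myosin, had 1358 and 1307 in the untreated group, 2949 and 2316 in the vitamin E group and 2695 and 2662 in the B6 group, with the untreated arrays lowest, and rose 1.96-fold (log2 difference 0.97, SE 0.11, adjusted p = 0.0017 from limma). Runx1 had 157 and 144, 245 and 249, and 157 and 164 in this order, with the vitamin E arrays highest, and rose 1.64-fold (adjusted p = 0.0078). Trim63 and Fbxo32, the ubiquitin ligases of muscle wasting, moved apart, with log2 differences between the untreated and the B6 group of 0.64 (adjusted p = 0.0047 from limma) and -0.97 (adjusted p = 0.00012). Counted once each, 57 genes of the 7 pathway lists were tested, and 19 rose and 5 fell in the vitamin E against the untreated group, 6 were higher and 19 lower in the untreated than in the B6 group, and 15 were higher and 10 lower in the vitamin E than in the B6 group. Among all genes tested, 8.18% rose and 7.64% fell, 21.1% were higher and 20.8% lower, and 21.1% were higher and 21.7% lower in these comparisons.

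**Figure D3:**
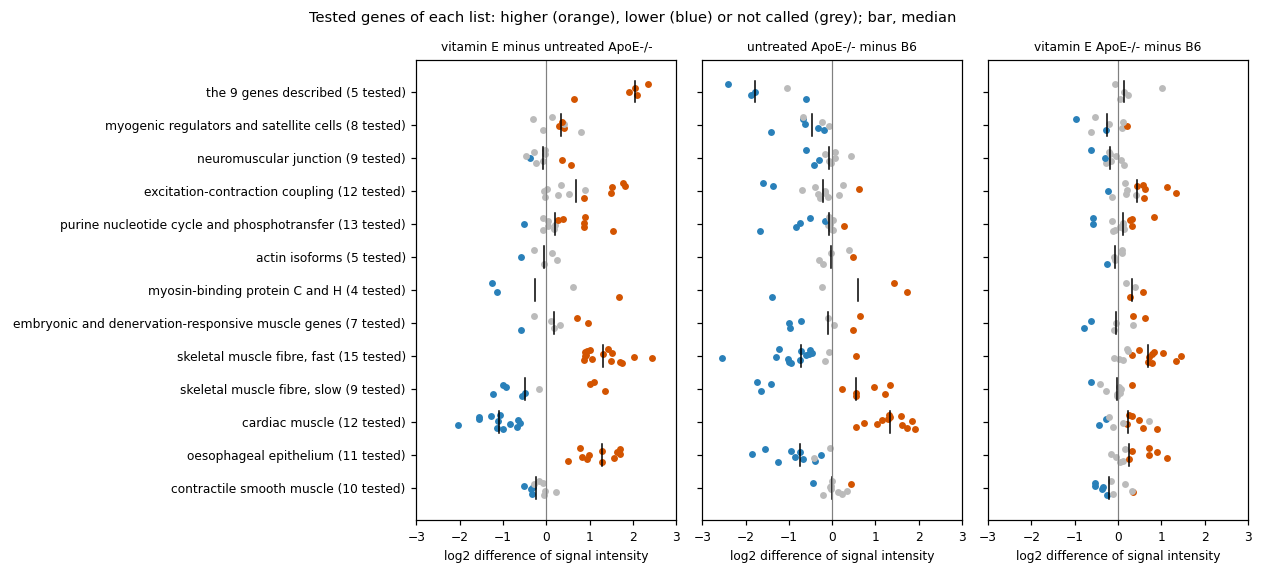
Log2 difference of signal intensity of the tested genes in each list for the 3 comparisons, with each gene as a point coloured by its call at an adjusted p under 0.05 from limma and the median of the list as a bar. In vitamin E minus untreated all 15 fast fibre markers and all 11 oesophageal epithelium markers lie to the right of 0 and all 12 cardiac muscle markers to the left.

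Markers of whole tissues differed between the groups as well, not all in the direction of the 5 measured genes. All 15 markers of fast skeletal fibres rose in the vitamin E against the untreated group (median log2 difference 1.31), and 12 were lower and 1 higher in the untreated than in the B6 group (median -0.73). Their summed signal intensity was 28227 and 27998 in the untreated group, 61795 and 69756 in the vitamin E group and 50922 and 49877 in the B6 group. Myh2, a fast myosin, had 403 and 349, 2105 and 1977, and 2153 and 2210 in this order and rose 5.44-fold (log2 difference 2.44, SE 0.08, adjusted p = 1.6e-05 from limma), close in size to Vgll2, while its log2 difference between the vitamin E and the B6 group was -0.10 (adjusted p = 0.38). Myh4, the fastest myosin, rose 4.07-fold (adjusted p = 1.6e-05) and was also 1.64-fold higher than in the B6 group (adjusted p = 0.0002), as were 10 of the 15 markers (median 0.70) with 0 lower. The 5 markers not called there were Myh1, Myh2, Tnnt3, Tnnc2 and Ckm. Mylk2, the skeletal myosin light chain kinase, was the exception that was higher in the untreated than in the B6 group (log2 difference 0.56, adjusted p = 0.038).

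Markers of slow fibres moved in both directions. Of 9 tested, 3 rose and 5 fell in the vitamin E against the untreated group (median -0.50), 6 were higher and 3 lower in the untreated than in the B6 group (median 0.54), and 1 was higher and 1 lower in the vitamin E than in the B6 group (median -0.03). Myh7, Tnnt1 and Tnni1 rose. Myh7, the slow myosin, had 207 and 220 in the untreated group, 521 and 578 in the vitamin E group and 695 and 632 in the B6 group, with the untreated arrays lowest, and rose 2.57-fold (log2 difference 1.36, SE 0.09, adjusted p = 0.00021 from limma). Tnnc1, Atp2a2, Myoz2, Csrp3 and Casq2 fell, and Casq2 fell 2.36-fold (log2 difference -1.24, SE 0.07, adjusted p = 0.00012 from limma). In this comparison these 5 genes went the way of the cardiac markers below, and Myh7, Tnnt1 and Tnni1 that of the fast fibres. The median of the list therefore describes neither set. All 12 tested markers of cardiac muscle fell in the vitamin E against the untreated group (median -1.09) and were higher in the untreated than in the B6 group (median 1.33). Of these 12, 6 were higher and 2 lower in the vitamin E than in the B6 group (median 0.23). Myl2, a ventricular myosin light chain, fell 4.13-fold (log2 difference -2.05, SE 0.07, adjusted p = 1.6e-05 from limma). The summed signal intensity of the cardiac markers was 54629 and 55582 in the untreated group, 28178 and 30936 in the vitamin E group and 27027 and 26528 in the B6 group.

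Markers of oesophageal epithelium went the way of the fast fibres. All 11 tested rose in the vitamin E against the untreated group (median 1.29), 9 were lower and 0 higher in the untreated than in the B6 group (median -0.74), and 6 were higher and 0 lower in the vitamin E than in the B6 group (median 0.26). Their summed signal intensity was 17930 and 17998 in the untreated group, 33540 and 37298 in the vitamin E group and 32272 and 32643 in the B6 group. Krt78 and Sprr3, products of the upper layers of stratified epithelium, rose 3.24-fold (adjusted p = 6.8e-05 from limma) and 3.26-fold (adjusted p = 1.6e-05). The authors reported staining of Sprr3 protein in the intima and nearby media of the aorta. They also reported phospholamban protein (Pln, listed here as cardiac) in the media. Neither marker is thus particular to oesophagus or heart. Of contractile smooth muscle, 0 of 10 markers rose and 4 fell in the vitamin E against the untreated group (median -0.23), 1 was higher and 1 lower in the untreated than in the B6 group (median -0.01), and 1 was higher and 5 lower in the vitamin E than in the B6 group (median -0.21). The part of skeletal muscle, heart or oesophagus in the values of the 9 genes was not tested, and in whole-tissue RNA fewer cells of a type and less RNA per cell cannot be told apart.

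RNA and labelling values also differed between the groups. For Gapdh, the 3′ probe set divided by the 5′ one gave 1.03 and 1.06 in the untreated group, 1.15 and 1.24 in the vitamin E group and 1.35 and 1.34 in the B6 group. For beta-actin the same ratio was 1.78 and 1.88, 1.64 and 1.64, and 2.01 and 2.06 in this order. There the vitamin E arrays were lowest, so that the 2 ratios did not order the groups alike. The poly-A control dap, which is added to the RNA before labelling, was 978 and 918, 1192 and 1203, and 3203 and 3179 in this order, so that the B6 arrays stood apart. The mean signal intensity of an array lay between 305 and 319, with 35.8% to 37.3% of probe sets at 100 or more. The part of RNA quality and labelling in the values of the 9 genes was not tested. The vitamin E arrays carry later record numbers than the untreated and B6 arrays, and no hybridisation or scan batch is given in the sources used here, so that a batch and the vitamin E group cannot be told apart.

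Genes with the course most like the 5 measured genes over the 6 arrays were found by distance. The log2 values of each gene were centred on their mean over the arrays, and the distance was taken to the mean centred course of Vgll2, Stac3, Ampd1, Acta1 and Mybpc1, by 1 probe set per gene. The nearest was Ryr1, at a distance of 0.25, followed by Teddm3, Sprr3, Tlcd3a, Klk13, Crabp2, Neb, Gsdma, Mybpc2 and Lce1f, the last at 0.34. Ryr1, Neb, which encodes the thin filament ruler nebulin, and Mybpc2 are skeletal muscle genes, while Sprr3, Klk13, Crabp2, Gsdma and Lce1f are known from stratified epithelium. Neb had signal intensities of 171 and 189 in the untreated group, 661 and 580 in the vitamin E group and 595 and 623 in the B6 group, and Sprr3 had 1079 and 1058, 3440 and 3527, and 3156 and 3107. Neb and Sprr3 had the untreated arrays lowest, as did Ryr1, Klk13 and Crabp2. The vitamin E arrays of Neb lay on either side of its B6 arrays. Sprr3, Ryr1, Klk13 and Crabp2 had both vitamin E arrays above both B6 arrays, as had Teddm3, Tlcd3a, Mybpc2 and Lce1f. The values were 707 and 665 against 533 and 490 for Klk13 and 346 and 314 against 228 and 229 for Crabp2. When all 7 tested probe sets were used for the mean course, 4 of the 10 nearest genes were shared. The likeness rests on 3 groups of 2 arrays and is a description.

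**Figure D4:**
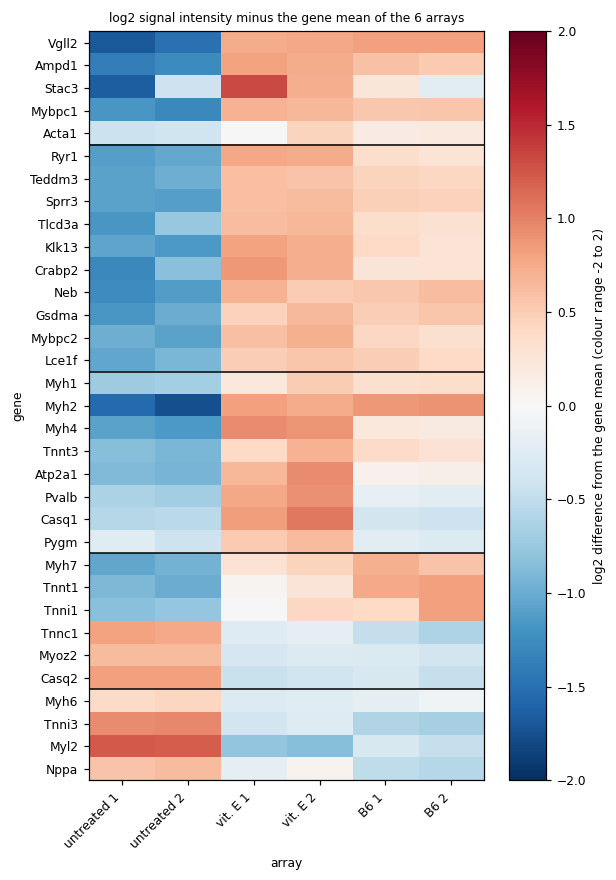
Log2 signal intensity minus the mean over the 6 arrays for the 5 measured genes, the 10 genes with the nearest course and markers of fast fibres, slow fibres and heart, with arrays as columns and a colour range from -2 to 2. The untreated arrays are blue in the first 3 blocks and red for the cardiac markers, and Pvalb, Casq1 and Pygm are darkest in the vitamin E arrays.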

How the data were processed

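Total RNA of 3 pooled aortas per array was hybridised by the authors to Affymetrix MG430 2.0 arrays, 2 per group, and the deposited signal intensities are linear values that the authors computed and scaled per array with GCOS, per the labels. Present calls were not used here, and the genome build of the annotation is not given in the sources used here. Of 45101 probe sets, 64 controls were left out, and 34945 had 1 gene symbol, 932 several and 9160 none.

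Values under 20 were set to 20 and log2-transformed. The 17909 probe sets whose mean reached 100 in 1 or more groups were fitted on all 6 arrays with 1 mean per group by limma 3.58.1 in R 4.3.3, with variances moderated along an intensity trend, which left 3 residual and added 4.46 prior degrees of freedom. The p values of limma were adjusted by Benjamini-Hochberg over all of them and called under 0.05, and intervals are at 95% without such an adjustment. The fit was tested on simulated data. Genes of lists were taken by the probe set with the highest mean, and 12 list symbols had no probe set with 1 symbol. Some list genes, such as Jsrp1, Eya1, Vgll3 and Mylk2, reached the limit of 100 only in their higher groups, which in part sets their direction.

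The 9 genes, the 7 pathway lists and the 12 marker lists were chosen with earlier results of these data known. Named were all probe sets of the 9 genes, per list the 2 genes with the highest mean and the 2 with the largest difference between the vitamin E and the untreated group, exceptions, and the 10 genes of nearest course. Other list genes, such as those near background, Chat and Slc18a3, were named after their values were seen. Markers of endothelium, Schwann cells, brown fat, thymocytes, lung and liver are given under the other observations. The precision is limited by 2 arrays per group. Nothing says that pools came from separate cohorts, so p-values measure the spread between these arrays. Protein sequences, and promoters of Stac3, Ampd1, Myod1 and Myf6, were not used here.

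Alternatives were no filter, a filter on the mean over the 6 arrays, quantile normalization, median centring, floors of 50 and 1, no trend, a fit of the 2 groups in question, a block for the replicate number, leaving out each array, all probe sets of list genes, and the methods' t-test at a p of at most 0.01 and at least 2-fold.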

Additional observations from a re-analysis of the deposited data

How the results depend on the processing

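For every called probe set of the 9 genes, the arrays of the groups compared did not overlap. Leaving out an array could therefore not turn its direction, and nothing is read from its keeping. No log2 difference of the 9 genes that was called with all arrays and the settings of the report changed direction. Acta1 in vitamin E against B6, which was not called there (log2 difference 0.04), was called at 0.27 without vitamin E replicate 1 and at -0.18 without vitamin E replicate 2. With median centring, which moved the log2 differences by -0.08, -0.07 and -0.15 for vitamin E against untreated, untreated against B6 and vitamin E against B6, the share of calls that were higher went from 55% to 33.7%, from 53.1% to 43.2% and from 53.3% to 31.4%, and in the last comparison 9 pathway genes were higher and 19 lower, beside 15 and 10. Without a filter 949, 4494 and 4464 probe sets were called in the 3 comparisons, beside 2777, 7305 and 7368, with 3, 3 and 0 probe sets of the 9 genes, and 11 pathway genes in place of 19 rose in the first. With a fit of only the groups compared 1820 probe sets were called in the first comparison, and with this fit, or with a floor of 50, 1 probe set of the 9 genes (Stac3) was called in the last. Counting all probe sets of the pathway genes, 9 fell in the first comparison, 14 were higher in the second, and 23 were higher and 16 lower in the last.

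The methods' t-test at its thresholds called 179, 768 and 582 probe sets on log2 values and 176, 772 and 585 on linear values, with 3, 3 and 0 of the 9 genes on either scale. Pathway genes called higher and lower were 5 and 2, 1 and 4, and 2 and 0 on log2 values, and 4 and 2, 2 and 5, and 1 and 0 on linear values. After Benjamini-Hochberg adjustment 0, 2156 and 67 probe sets (log2) or 0, 2166 and 76 (linear) were past the threshold with no limit on the fold, where limma called 2777 in the first comparison.

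Leaving out each array in turn gave 808 to 3517, 4337 to 8791 and 4353 to 7507 probe sets called, 3 to 7, 3 to 5 and 0 to 1 of the 9 genes' probe sets, 11 to 23, 5 to 7 and 9 to 18 pathway genes higher and 3 to 6, 13 to 26 and 6 to 15 lower. Both untreated replicates gave the lowest counts in the first comparison, with 861 calls without replicate 1 and 808 without replicate 2. The lone array of a group was then assumed to vary like the others, and the cause of these changes was not tested.

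With the replicate block, 6, 5 and 0 probe sets of the 9 genes were called, and 2185, 6887 and 6991 of all. The replicate numbers do not pair the samples, as deviations of equal numbers correlated at 0.05, 0.05 and -0.10. Low signal limits Myod1, Chrna1 and Musk, whose values lie near or under 20, and 2 arrays per group limit all differences. Vgll2 and Stac3 also had low signal in the untreated group, and their differences from that group were smaller with a floor of 50. For Stac3 the log2 difference was then 1.64 between the vitamin E and the untreated group and -0.62 between the untreated and the B6 group.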

Other observations

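Genes of other tissues also differed between the groups, outside the pathways of skeletal muscle. Of 8 markers of liver, 7 were higher and 0 lower in the vitamin E than in the untreated group (median log2 difference 0.91), and all 8 were lower than in the B6 group in the untreated group (median -4.36) and the vitamin E group (median -3.43). Alb, serum albumin, had signal intensities of 243 and 273 in the untreated group, 379 and 485 in the vitamin E group and 6097 and 6107 in the B6 group. Of 7 lung markers, 0 were higher and 6 lower in the vitamin E than in the untreated group (median -1.96), 0 were higher and 4 lower in the untreated than in the B6 group (median -0.48), and all 7 were lower in the vitamin E than in the B6 group (median -1.99).

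Of 5 tested thymocyte markers, 2 were higher and 0 lower in the vitamin E than in the untreated group (median 0.44), and all 5 were higher than in the B6 group in both groups of ApoE-/- mice (medians 2.20 and 2.63). Brown adipocyte markers had a summed signal intensity from 27272 to 33259 on the arrays, so that RNA of fat was present in all groups. They changed little, with 1 of 7 higher and 2 lower in the vitamin E against the untreated group (median -0.0046), 2 and 2 in the untreated against the B6 group (median -0.15) and 0 and 2 in the vitamin E against the B6 group (median -0.15). In the same 3 comparisons, endothelial markers gave 0 higher and 2 lower, 3 and 1, and 2 and 2 of 8 tested (medians -0.22, 0.28 and 0.19), and Schwann cell markers gave 0 and 2, 1 and 2, and 1 and 2 of 4 tested (medians -0.11, -0.37 and -0.41).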
